A study of Mus musculus with 6 samples.

Results

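The integrated stress response genes described here are Atf4, Atf5, Ddit3, Atf3, Cebpb, Asns, Slc7a11, Chac1, Trib3 and Ppp1r15a, 10 genes of the axis that runs through the transcription factors ATF4 and CHOP. Every probe whose gene symbol, old or current, was one of these names was taken, which gave 20 of the 45281 probes on the array, for 10 of the 19057 genes it names. Serine synthesis enzymes, although controlled by ATF4, were not part of the set. Of the 20 probes, 16 passed the detection filter, and each of the 10 genes kept at least 1 probe among the 9711 genes tested.

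The shChd8 group was 3 arrays of mouse embryonic stem cells that had received a short hairpin RNA against Chd8, a chromatin remodeller of the CHD family, on the pHYPER plasmid, and the control group was 3 arrays of transfected cells for which no source names the insert of the vector. Both groups were grown on division-blocked mouse embryonic fibroblasts in 15% serum with leukemia inhibitory factor, were electroporated, and were under puromycin for 48 h from 24 h after transfection. A single hairpin is named, and the line and strain of the cells are not stated. The sources do not call the arrays separate cultures, so the p-values cover the spread among these arrays alone, and that spread may be technical. All 6 arrays were on 1 slide with each group at adjacent positions, and an effect of position cannot be told apart from one of the hairpin.

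Cells under nutrient or protein-folding stress phosphorylate the translation initiation factor eIF2, which slows most protein synthesis while the mRNA of Atf4 is translated more. ATF4 then induces further transcription factors, among them CHOP (the product of Ddit3) and ATF3, together with genes for amino acid supply and for feedback on the pathway. Much of the control of ATF4 itself is therefore translational, and an array of RNA does not measure that step. Several of these genes also answer to other signals, such as growth factors for Atf3 and Cebpb or oxidative stress, through NRF2, for Slc7a11.

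Chd8 was lower in the shChd8 arrays, with a log2 intensity of 8.57 ± 0.19 in shChd8 cells and 9.96 ± 0.06 in control cells (SD, n = 3 each) and a log2 difference of -1.39 (SE 0.15, limma adjusted p = 0.00907). The number of probes detected per array was 16632 to 17440 in shChd8 cells and 16482 to 16687 in control cells, and the median raw intensity was 108.8 to 122.9 in shChd8 cells and 106.5 to 109.5 in control cells. All 10 tested embryonic stem cell markers, Pou5f1, Nanog and Sox2 among them, were detected on all 6 arrays. Limma called 0 of them, beside 4.30% of all genes. At an unadjusted p under 0.05 the count was also 0, beside 13.4% of all genes higher and 14.0% lower. Markers of the feeder fibroblasts were detected too, 20 of 23 tested ones on every array, whereas Col5a2 and Postn were detected on none. Of the 23 tested feeder markers 22 were above 0, beside 48.2% of all genes. At an unadjusted p under 0.05, 15 were higher, beside 13.4% of all genes. Limma called 2 as higher, beside 1.70% of all genes. These were Fbln2, a matrix protein of fibroblasts, by 1.13 (SE 0.22), and Tagln by 1.06 (SE 0.22). Tagln was detected on 2 of 3 control arrays. The median deviation of the feeder markers from their mean over arrays was 0.93, 0.42 and 0.06 on the log2 scale on shChd8 arrays 1, 2 and 3, against -0.17, -0.36 and -0.81 on control arrays 1, 2 and 3. Their summed normalized intensity was 27300 to 52460 on the shChd8 arrays and 14590 to 23910 on the control arrays. In bulk RNA, more cells of a type and more RNA per cell cannot be told apart.

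ATF4 binds DNA at composite elements together with C/EBP proteins, and such elements are known in the promoters of Asns, Slc7a11, Chac1 and Atf3. The letters TGATGNAA, read on both strands, were searched in the RefSeq promoter windows of build GRCm38.p6, which span 250 bases before and 50 bases after each start. All 10 genes had a window, and with both windows of Atf5 there were 11, of which 5 held the letters, whereas 3.97% of all 32851 windows held them. The genes were chosen as members of the ATF4 and CHOP axis, so this comparison is a description and no test. Matches before the start were found in 4 genes and are printed here because these genes fall on different sides of the comparison described next. Capitals mark the matches, TGATGNAA or its reverse complement, on the strand of the gene, 5′ to 3′.
Slc7a11, chr3:50443614-50443719, minus strand: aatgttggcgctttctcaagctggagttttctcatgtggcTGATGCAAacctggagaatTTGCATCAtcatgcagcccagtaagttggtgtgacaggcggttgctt
Atf3, chr1:191183396-191183483, minus strand: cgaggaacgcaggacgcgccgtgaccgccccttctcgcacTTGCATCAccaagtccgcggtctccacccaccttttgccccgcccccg
Asns, chr6:7693210-7693272, minus strand: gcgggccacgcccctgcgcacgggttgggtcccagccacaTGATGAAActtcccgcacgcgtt
Chac1, chr2:119351009-119351096, plus strand: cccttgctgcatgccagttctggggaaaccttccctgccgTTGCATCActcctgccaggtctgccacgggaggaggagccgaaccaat

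The Slc7a11 window held 2 matches in opposite orientation, the first starting 66 bases and the second 47 bases before the start. In the other genes the match began 110 bases (Atf3), 23 bases (Asns) and 193 bases (Chac1) before the start. Trib3 held a match after its start. The windows of Atf4, Atf5, Ddit3, Cebpb and Ppp1r15a held none, which says only that these letters are not in these windows. The letters of the antioxidant response element bound by NRF2, TGACNNNGC, were in 3 of the 11 windows, those of Cebpb, Asns and Ppp1r15a, against 12.4% of all windows. The cAMP response element TGACGTCA was in the Ppp1r15a window and in 1.79% of all windows. A match is a description of the letters and no evidence of binding in these cells.

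Over the set, none of the 10 genes passed the test in either direction. Ddit3 was 2.59-fold, Cebpb 1.52-fold and Atf5 1.45-fold higher in shChd8 cells. Slc7a11 and Atf3 were also higher there, but from control levels near background, and their differences were smaller without background correction. Asns stood lower at all 3 of its probes, with an interval that excludes 0 at 1 of them, and Trib3, Atf4 at its brightest probe, Chac1 and Ppp1r15a had intervals that include no difference. By limma's moderated test with Benjamini-Hochberg adjustment over all tested probes, 0 of the 10 genes were called at an adjusted p under 0.05, beside 4.30% of all 9711 genes (1.70% higher and 2.61% lower, which is 165 and 253 genes, whereas median scaling gave 748 and 166). The count of 0 depended on the processing. With background left uncorrected, 4 genes (Atf5, Ddit3, Cebpb and Slc7a11) were called as higher and a second Asns probe as lower. With median scaling or a trend of variance with intensity, 3 genes were called. Calls over all 9711 genes moved too. They were 558 higher and 618 lower without background correction, 748 and 166 with median scaling, and 575 and 589 with the trend. Slc7a11, in which the detection filter favoured a difference, is among the genes called in each of these settings. Of the 16 tested probes 0 were called, beside 3.68% of all 16732 probes. Atf3 and Slc7a11 passed the detection filter through the shChd8 arrays, where they were detected on 3 of 3, with 1 of 3 in control cells, so the filter favoured a difference in them. They are left out of the next counts, which cover the 8 members among the 8383 genes detected on all 6 arrays, fitted on their own. At an unadjusted p under 0.05, 3 of the 8 were higher (Atf5, Ddit3 and Cebpb) and 1 lower (Asns, limma adjusted p = 0.163), against 14.2% of these genes higher and 15.5% lower. Groups did not overlap for 2 of the 8, Atf5 and Cebpb, both with shChd8 higher, against 14.9% of these genes higher and 19.2% lower. The median log2 difference was 0.14 for the 8 members and -0.02 for all 8383 genes. Over all 10 it was 0.36, or 0.19 without background correction and 0.09 with the feeder marker median of each array as a covariate. Each gene is represented in these counts by its tested probe with the highest mean.

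**Figure D1:**
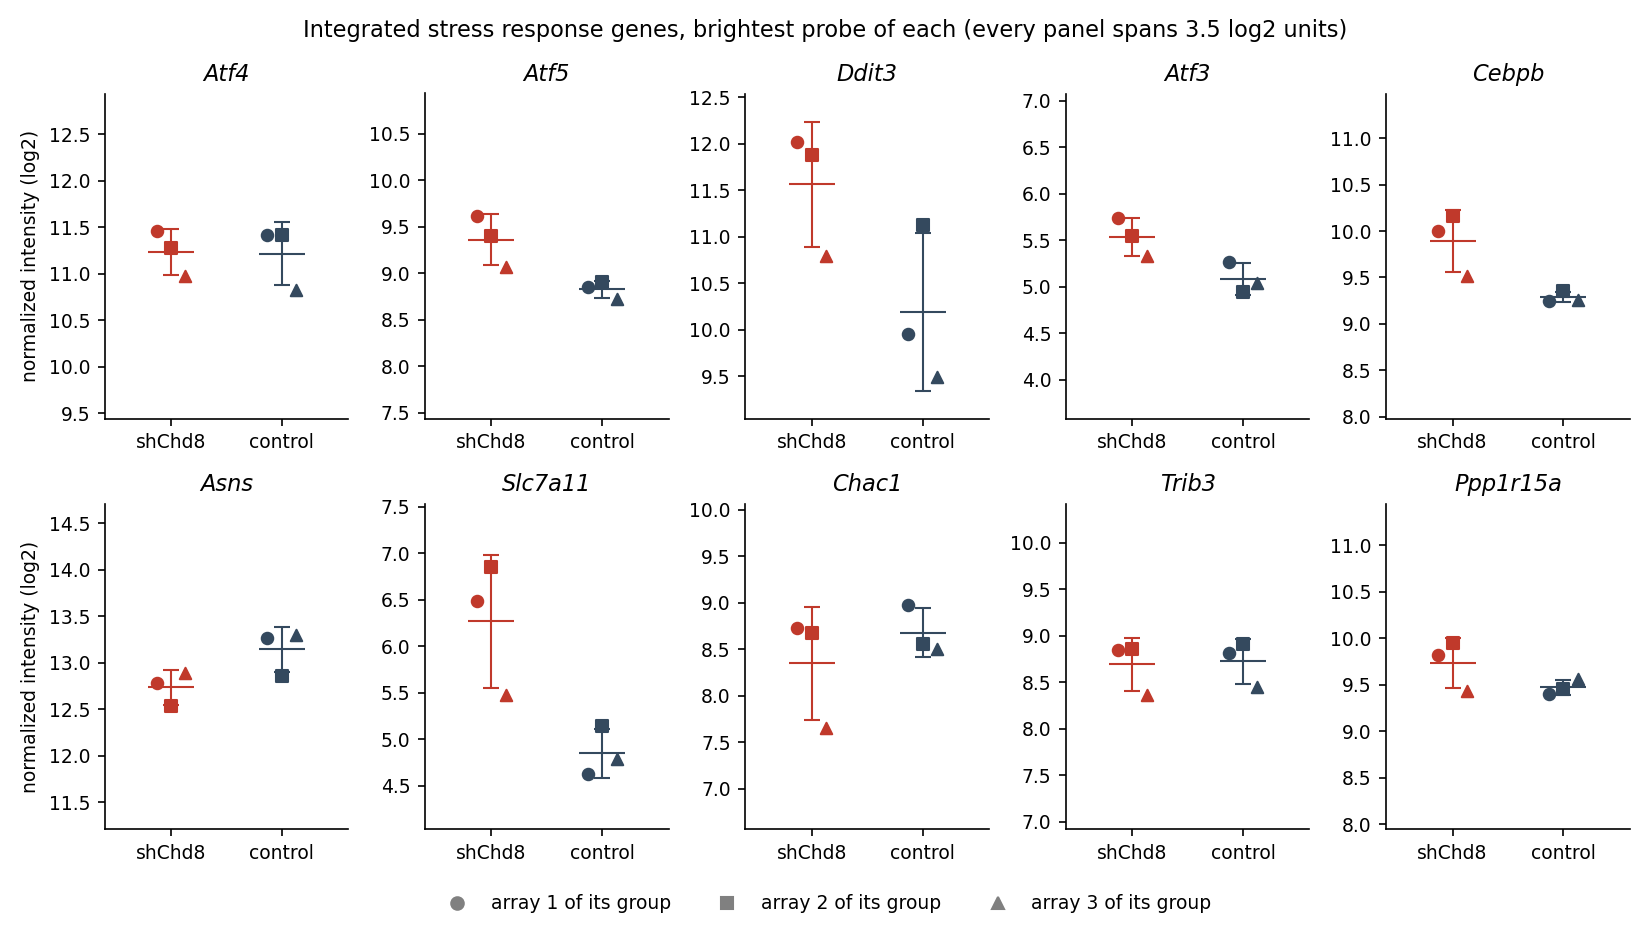
Normalized log2 intensity of the brightest probe of each of the 10 genes, with shChd8 arrays on the left of each panel and control arrays on the right, as points with mean and SD (n = 3 each). Every panel spans 3.5 log2 units, and symbols only number the arrays within a group and pair nothing. The groups are separate for Slc7a11, Cebpb, Atf5 and Atf3 and overlap for the other genes. Slc7a11 and Atf3 passed the detection filter through the shChd8 arrays. Of all genes, 14.6% had separate groups with shChd8 higher and 18.2% with shChd8 lower.

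The factor at the centre of the pathway gave different values at its 2 probes. Atf4 encodes the transcription factor whose translation rises when eIF2 is phosphorylated. Its brightest probe (ILMN_2642681) had log2 intensities of 11.46, 11.27 and 10.97 on the shChd8 arrays and 11.41, 11.41 and 10.82 on the control arrays. These values overlapped almost wholly. The log2 difference was 0.02 (SE 0.21, 95% interval -0.47 to 0.51, limma adjusted p = 0.961). The other Atf4 probe (ILMN_1223734) had 8.30, 8.22 and 7.55 on the shChd8 arrays and 7.41, 7.52 and 6.81 on the control arrays. Here the 3 shChd8 arrays were all higher than the control arrays, though only just for the lowest, and the log2 difference was 0.78 (SE 0.26, 95% interval 0.18 to 1.37, adjusted p = 0.113). Both probes were annotated to the same transcript record, and which of them follows the main Atf4 mRNA was not tested.

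Atf5, a related factor that is also translated more under eIF2 phosphorylation, had log2 intensities of 9.62, 9.40 and 9.07 on the shChd8 arrays and 8.85, 8.91 and 8.73 on the control arrays. All 3 shChd8 arrays lay above the control arrays, and the control arrays were close together. The log2 difference was 0.53 (SE 0.18, 95% interval 0.13 to 0.94, limma adjusted p = 0.11), a 1.45-fold difference that did not pass the test.

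Ddit3, which encodes the pro-apoptotic factor CHOP, was higher in shChd8 cells at both probes, with a wide spread within each group. Its brightest probe (ILMN_2652909) had log2 intensities of 12.02, 11.88 and 10.79 on the shChd8 arrays and 9.95, 11.13 and 9.49 on the control arrays. Control array 2 lay above shChd8 array 3, so the groups overlapped, while the other 2 control arrays lay below all shChd8 arrays. The SD was 0.67 in shChd8 and 0.85 in control cells (n = 3 each), and the log2 difference of 1.37 (SE 0.45, 95% interval 0.35 to 2.40) did not pass the test (limma adjusted p = 0.108). The other Ddit3 probe (ILMN_2927373) repeated the pattern, with 10.95, 11.18 and 10.10 on the shChd8 arrays and 9.37, 10.11 and 8.44 on the control arrays. There control array 2 and shChd8 array 3 were level to within 0.01, and the log2 difference was 1.44 (SE 0.42, 95% interval 0.47 to 2.40, adjusted p = 0.0839). Without control array 2 both probes passed, each with a log2 difference of 1.83 (adjusted p = 0.0391 and 0.0399). With any other array left out neither probe passed. The adjusted p at the brightest probe was then 0.0647 (without shChd8 array 3) to 0.279 (without shChd8 array 1). In a fit that included the feeder median of each array, the difference at the brightest probe was 0.18 (SE 0.65, adjusted p = 0.968).

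Atf3 and Cebpb are factors of the basic leucine zipper family that join the response downstream of ATF4. Atf3 was dim, with log2 intensities of 5.74, 5.54 and 5.33 on the shChd8 arrays and 5.27, 4.94 and 5.04 on the control arrays. The groups were separate, by a small gap between shChd8 array 3 and control array 1, and the log2 difference was 0.45 (SE 0.17, 95% interval 0.06 to 0.84, limma adjusted p = 0.146). Without background correction it was 0.14 (adjusted p = 0.38). Cebpb, a factor that can form the composite element's dimer with ATF4, had 10.001, 10.156 and 9.516 on the shChd8 arrays and 9.247, 9.345 and 9.264 on the control arrays. Its control values lay within 0.10 of each other and below all shChd8 values. Its log2 difference was 0.61 (SE 0.19, 95% interval 0.17 to 1.04, adjusted p = 0.0979), and it was 0.79 and passed without shChd8 array 3 (adjusted p = 0.0499). With any other array left out Cebpb did not pass, at an adjusted p of 0.118 (without control array 2) to 0.259 (without shChd8 array 2).

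**Figure D2:**
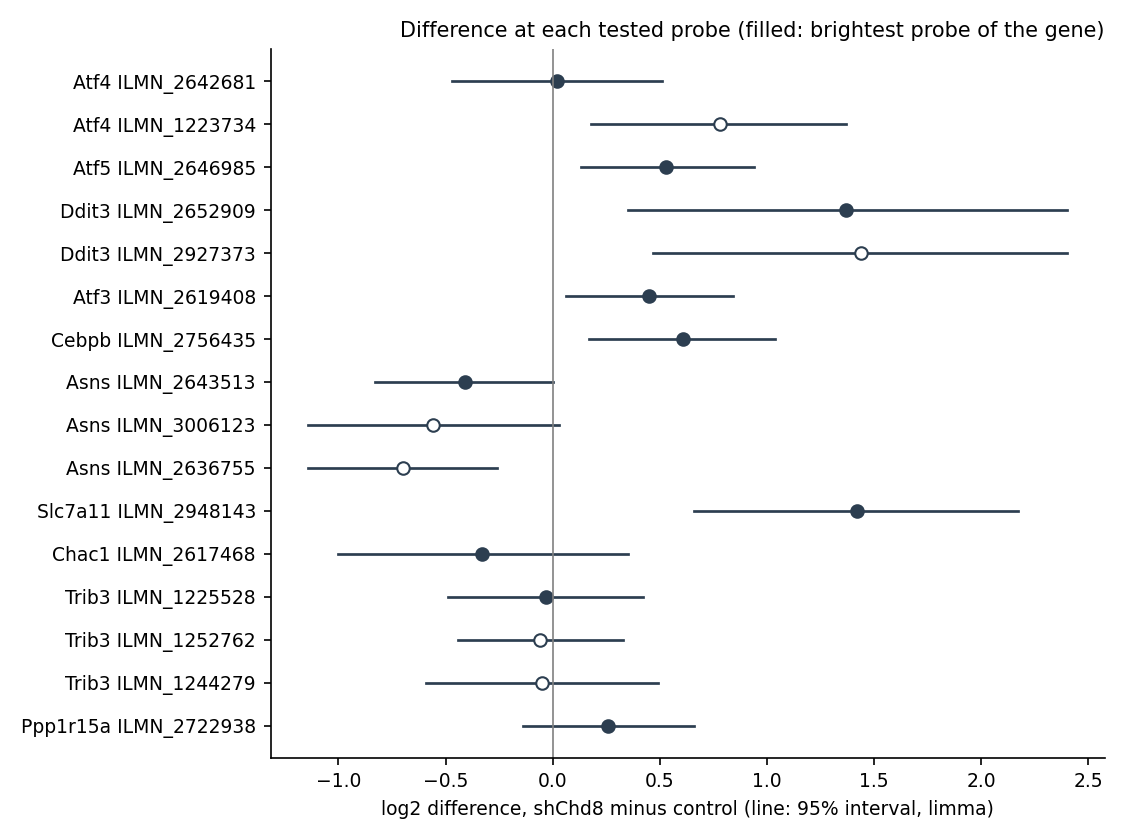
Log2 difference (shChd8 minus control) at each of the 16 tested probes, as points with the 95% interval from limma, with filled points for the brightest probe of a gene. The Ddit3 probes lie at 1.37 and 1.44 and the Slc7a11 probe, near background in control cells, at 1.42, the 3 Asns probes lie between -0.70 and -0.41, and the 3 Trib3 probes lie between -0.06 and -0.03.

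The genes of amino acid supply and glutathione did not go one way. Slc7a11 encodes the exchanger that imports cystine for glutathione synthesis and is induced by both ATF4 and NRF2. At its only tested probe (ILMN_2948143) it had log2 intensities of 6.48, 6.85 and 5.47 on the shChd8 arrays and 4.62, 5.14 and 4.78 on the control arrays. All shChd8 arrays were higher, with array 3 nearest to the control values. The log2 difference of 1.42 (SE 0.33, 95% interval 0.66 to 2.17) missed the threshold narrowly (limma adjusted p = 0.0532). The raw intensity of this probe was 178.4, 221.7 and 145.9 on the shChd8 arrays and 105.7, 116.3 and 112.7 on the control arrays, the last of which lie at the level of the array medians. Its size therefore depended on background correction, at 1.42 with it and 0.53 without it (adjusted p = 0.0441). Without shChd8 array 3 the difference was 1.77 (adjusted p = 0.032). With any other array left out it did not pass, at an adjusted p of 0.0512 (without control array 2) to 0.169 (without shChd8 array 1). Of the other 4 Slc7a11 probes, 3 were detected on no array and 1 on a single array of each group, so they carry no information on the change.

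Asns encodes asparagine synthetase and is a classical ATF4 target. Its brightest probe (ILMN_2643513) had log2 intensities of 12.78, 12.53 and 12.89 on the shChd8 arrays and 13.27, 12.86 and 13.30 on the control arrays. Control array 2 was level with the upper shChd8 values, and the other control arrays were higher than all of them. The log2 difference was -0.41 (SE 0.18, 95% interval -0.83 to 0.00, limma adjusted p = 0.198). A second Asns probe (ILMN_2636755) had 7.99, 7.62 and 8.02 on the shChd8 arrays and 8.62, 8.28 and 8.82 on the control arrays. All shChd8 arrays lay below the control arrays at this probe, with a log2 difference of -0.70 (SE 0.19, 95% interval -1.14 to -0.26, adjusted p = 0.0738). The third Asns probe (ILMN_3006123) had a log2 difference of -0.56 (SE 0.26, adjusted p = 0.218). The 3 probes thus had the same sign, and none passed the test. The second probe passed as lower without background correction at -0.54 (adjusted p = 0.0309) and with an intensity trend at -0.70 (adjusted p = 0.0345). The deposited normalized values, nearly the same setting as no background correction, also gave -0.54 (adjusted p = 0.0308). It also passed without control array 2 at -0.84 (adjusted p = 0.0484). With any other array left out it did not pass, at an adjusted p of 0.0836 (without shChd8 array 3) to 0.209 (without shChd8 array 2).

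Chac1, an enzyme that degrades glutathione and is induced by ATF4, had log2 intensities of 8.73, 8.67 and 7.65 on the shChd8 arrays and 8.98, 8.56 and 8.50 on the control arrays. shChd8 array 3 was far below the other 5 arrays, which overlapped. The log2 difference was -0.33 (SE 0.29, limma adjusted p = 0.524), which is 0.797-fold with a 95% interval of 0.50 to 1.27. Without shChd8 array 3 the log2 difference was 0.03.

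The feedback genes of the pathway showed no difference that passed the test. Trib3 encodes a pseudokinase that is induced by ATF4 and CHOP and dampens their activity. Its brightest probe (ILMN_1225528) had log2 intensities of 8.85, 8.86 and 8.36 on the shChd8 arrays and 8.81, 8.91 and 8.45 on the control arrays. The groups overlapped. The log2 difference was -0.03 (SE 0.20, 95% interval -0.49 to 0.42, limma adjusted p = 0.94), and the other 2 Trib3 probes had -0.06 and -0.05. In fold terms the interval at the brightest probe was 0.713 to 1.34.

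Ppp1r15a encodes GADD34, the phosphatase subunit that removes the phosphate from eIF2 and ends the response. It had log2 intensities of 9.82, 9.95 and 9.43 on the shChd8 arrays and 9.40, 9.46 and 9.56 on the control arrays. Arrays 1 and 2 of shChd8 were above all control arrays, and shChd8 array 3 was among them. The log2 difference was 0.26 (SE 0.17, 95% interval -0.14 to 0.66, adjusted p = 0.384).

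The arrays of a group differed in a common way across the genes. shChd8 array 3 had the lowest value of its group for 9 of the 10 genes, the exception being Asns, and it was also the shChd8 array with the lowest feeder marker median. Among control arrays, array 2 was the highest for 6 genes, although its feeder marker median (-0.36) was below that of array 1 (-0.17). Control array 3 was the lowest for 5 genes and had the lowest feeder marker median. How many of all genes share these orders was not examined. The median deviation of the 10 genes was 0.33, 0.27 and -0.09 on the shChd8 arrays and -0.12, -0.11 and -0.30 on the control arrays. These medians include Atf3 and Slc7a11, in which the detection filter favoured a difference. Their order between the groups is therefore a description and no test. The feeder marker median was higher on every shChd8 array than on any control array. The part of the feeder markers in the higher values of Ddit3, Slc7a11, Cebpb, Atf5 and Atf3 was not tested. In the fit that included the feeder median the log2 differences were 0.83 for Slc7a11, 0.31 for Cebpb, 0.10 for Atf5 and 0.09 for Atf3, and -1.22 for Chac1. In that fit limma called 0 of 9711 genes (1382 probes at an unadjusted p under 0.05), and the median standard error over probes was 0.31, against 0.19 without the covariate.

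**Figure D3:**
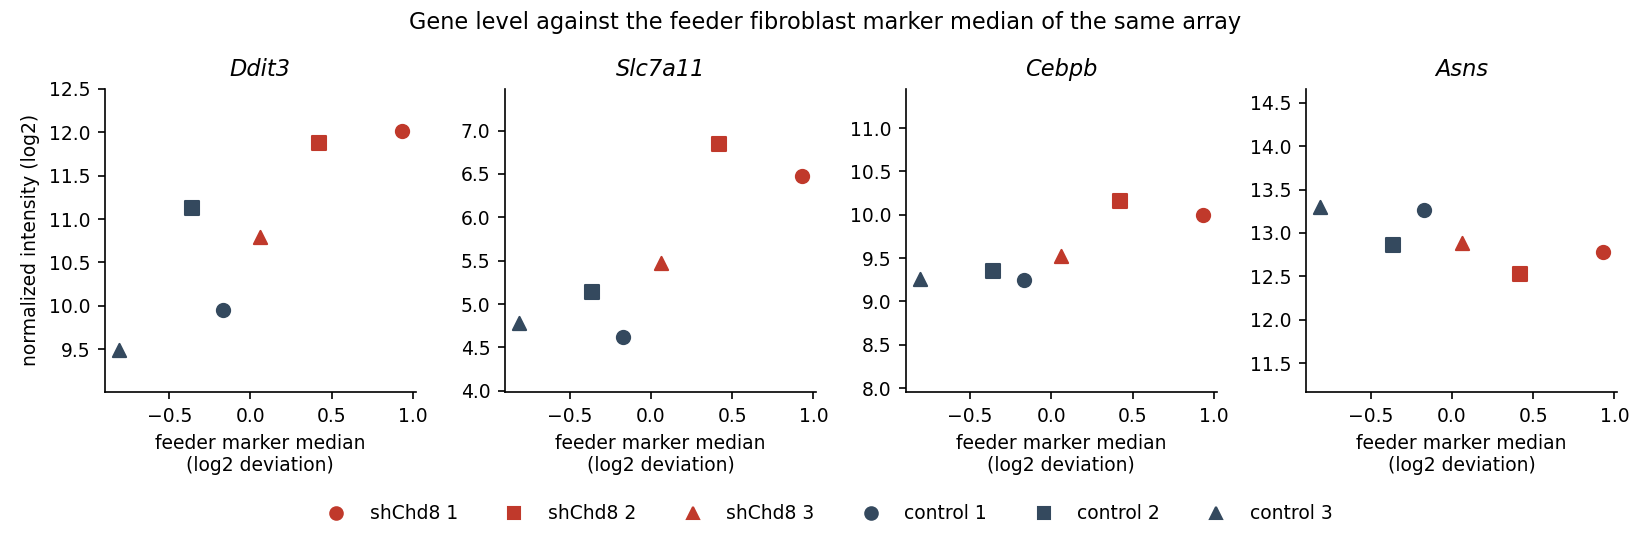
Normalized log2 intensity of Ddit3, Slc7a11, Cebpb and Asns (brightest probes) against the median log2 deviation of the 23 feeder fibroblast markers on the same array, shChd8 arrays in red and control arrays in dark blue. The shChd8 arrays lie at marker medians of 0.06 to 0.93 and the control arrays at -0.81 to -0.17, so the groups do not overlap on the marker axis.

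Beyond the 10 genes, 62 further genes of the pathway were tested, and 2 of them rose and 0 fell, beside 1.70% and 2.61% of all genes. Both belonged to the 24 other targets of ATF4 and CHOP. Bbc3, which encodes the apoptosis protein PUMA, had log2 intensities of 9.95, 10.12 and 10.08 on the shChd8 arrays and 8.93, 9.31 and 8.86 on the control arrays. It rose by 1.02 (SE 0.17, limma adjusted p = 0.0279) with separate groups, although another Bbc3 probe (ILMN_2690620) had -0.01. Ddit4, an inhibitor of the growth kinase complex mTORC1, had 9.92, 9.97 and 9.90 on the shChd8 arrays and 9.25, 8.64 and 8.76 on the control arrays, and rose by 1.04 (SE 0.18, adjusted p = 0.0313). Both are also known p53 targets. Neither passed without shChd8 array 1, without shChd8 array 2, without control array 3, with the feeder covariate or in the unmoderated test, and without control array 1 Ddit4 alone passed.

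Most of that list leaned upward, and no gene of it beyond Bbc3 and Ddit4 passed. Of its 24 genes, Bbc3 and Ddit4 included, 19 were above 0 and 5 below, beside 48.2% of all genes above 0. The median log2 difference was 0.32 against -0.02 for all genes. The autophagy receptor Sqstm1 had 0.89 (adjusted p = 0.0839), the cell cycle inhibitor Cdkn1a 1.08 (adjusted p = 0.101) and the angiogenic factor Vegfa 0.91 (adjusted p = 0.104). Nupr1, a small stress-induced chromatin protein, had 0.72. Among the 5 genes below 0, Gpt2 had -0.61 (adjusted p = 0.146) and Aldh18a1 -0.39 (adjusted p = 0.291).

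Upstream, the 13 tested genes for eIF2 kinases, eIF2, its exchange factor eIF2B and their regulators had 0 calls by limma (3 were lower at an unadjusted p under 0.05). Their median was -0.05. Eif2s3x, a subunit of eIF2, had a log2 difference of -0.57 (SE 0.18, adjusted p = 0.104) and Eif2b3, a subunit of eIF2B, -0.37 (adjusted p = 0.135). Ppp1r15b, the constitutive counterpart of GADD34 in eIF2 dephosphorylation, had -0.62 (adjusted p = 0.149). All 3 had lower values on every shChd8 array than on any control array. In the whole list of 13 this held for 5 genes, with the opposite for 2, against 18.2% and 14.6% of all genes, and at an unadjusted p under 0.05 the shares of all genes were 14.0% lower and 13.4% higher.

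The protein synthesis targets stood below 0 more often than above. Among 18 cytosolic aminoacyl-tRNA synthetases, which charge tRNAs and include many ATF4 targets, 16 were below 0 with a median log2 difference of -0.25. Of all genes, 48.2% were above 0. By limma 0 were called, and 4 were lower at an unadjusted p under 0.05, beside 14.0% of all genes. In 8 of them all shChd8 arrays lay below all control arrays, beside 18.2% of all genes. Vars had 9.79, 9.65 and 10.09 on the shChd8 arrays and 10.44, 10.49 and 10.58 on the control arrays, a log2 difference of -0.66 (SE 0.16, adjusted p = 0.0593). Eprs had -0.45 (adjusted p = 0.166) and Tars -0.40 (adjusted p = 0.176). The 7 ATF4-linked amino acid transporters had 0 calls by limma (at an unadjusted p under 0.05, 2 were higher, beside 13.4% of all genes), and their median was -0.03. Among them the glutamine transporter Slc38a2 had 0.50 (adjusted p = 0.152), the glycine transporter Slc6a9 0.46 (adjusted p = 0.155) and Slc3a2, the heavy chain that pairs with the Slc7a11 protein, -0.28 (adjusted p = 0.275).

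**Figure D4:**
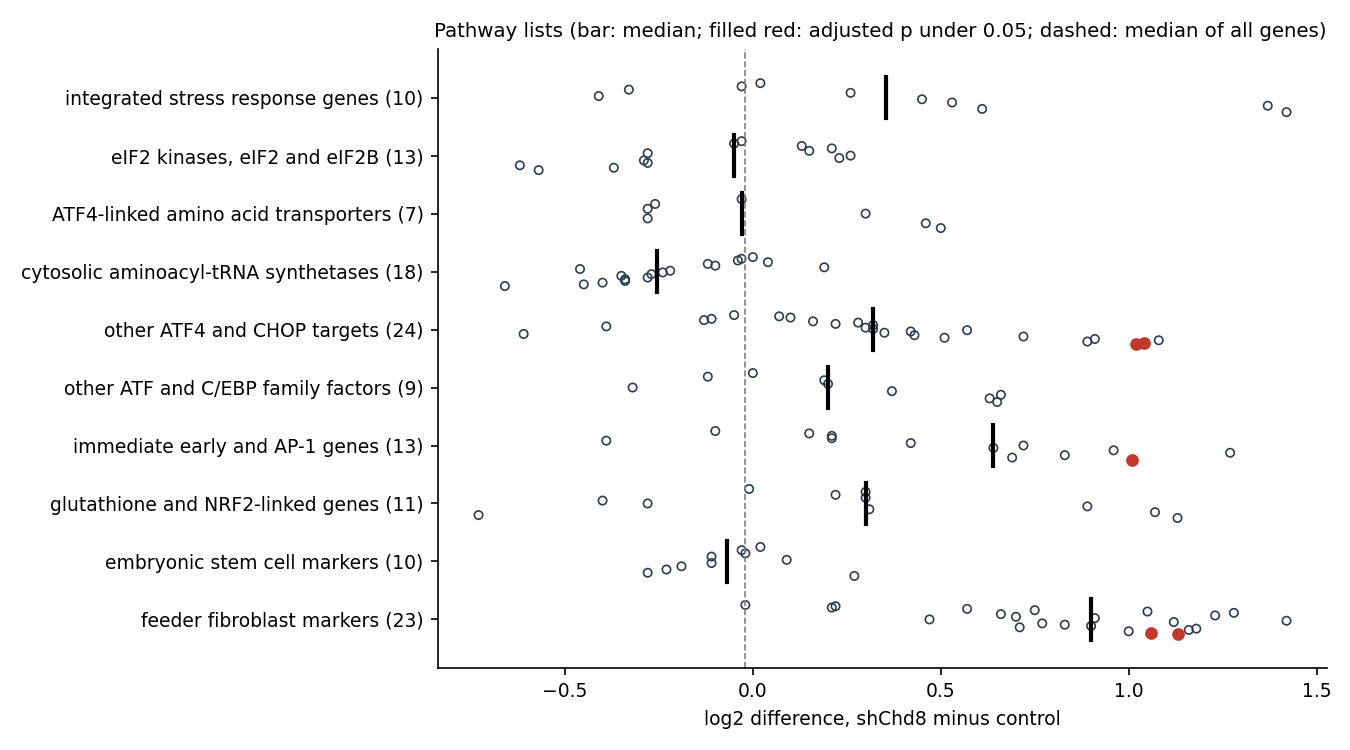
Log2 difference (shChd8 minus control) of each tested gene in the pathway and marker lists, with the number of genes in brackets, a bar at the median and filled red points for genes at an adjusted p under 0.05. The median is 0.36 for the integrated stress response genes (0.14 for the 8 detected on all arrays), -0.25 for the synthetases, 0.64 for immediate early genes and 0.90 for feeder fibroblast markers, against -0.02 for all genes (dashed line).

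Relatives and partners of the factors were examined in 3 further lists. Of 9 other ATF and C/EBP family genes 0 were called by limma, beside 4.30% of all genes, with a median of 0.20. At an unadjusted p under 0.05, 4 were higher, Creb3l1 among them, beside 13.4% of all genes. Atf7 had a log2 difference of 0.65 (adjusted p = 0.0604), Creb3l1 0.63 (adjusted p = 0.137) and Creb3 0.66 (adjusted p = 0.137). Creb3l1 was near background, detected on 2 of 3 shChd8 arrays and 1 of 3 control arrays. Immediate early and AP-1 genes respond quickly to growth factors and stress, and several of them encode AP-1 subunits. Among the 13 tested, 11 were above 0 with a median of 0.64, beside 48.2% of all genes above 0. Junb, an AP-1 subunit, had 9.02, 8.96 and 8.80 on the shChd8 arrays and 7.79, 8.26 and 7.70 on the control arrays, and it alone of this list passed the test, rising by 1.01 (SE 0.18, adjusted p = 0.0339). The feeder markers, with a median of 0.90 and 2 of 23 called as higher, were higher on the same arrays. Of all genes 1.70% were called as higher.

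Glutathione and NRF2-linked genes were set beside Slc7a11 and Chac1. Of 11 tested, 0 were called by limma, beside 4.30% of all genes, with a median of 0.30. At an unadjusted p under 0.05, 3 were higher and 1 was lower, beside 13.4% and 14.0% of all genes. Srxn1, a sulfiredoxin induced by NRF2, had log2 intensities of 10.54, 10.76 and 9.96 on the shChd8 arrays and 8.85, 9.92 and 9.10 on the control arrays. As for Ddit3, control array 2 was the highest control and shChd8 array 3 the lowest shChd8 array, and here they were nearly level. Its log2 difference was 1.13 (SE 0.31, adjusted p = 0.071), that of the haem oxygenase Hmox1 1.07 (adjusted p = 0.178), and that of Ggct -0.73 (adjusted p = 0.0809).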

How the data were processed

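Gene expression was measured on Illumina bead arrays, 1 per sample. The deposited non-normalized table gives, for every array, a linear intensity and a detection p-value of each probe, as its headers name them. The submitters' processing notes list GenomeStudio without a version. The lowest intensity per array was 75.44 to 92.6, so no background had been subtracted. The authors' deposited normalized intensity has the rank order of the raw arrays and matches quantile normalization. Using limma 3.58.1 in R 4.3.3, neqc (offset 16) removed background by the negative controls' level, taken from the detection p-values, and made the arrays' quantiles equal on the log2 scale. Probes with a detection p under 0.01 on at least 3 arrays (16732) were fitted with lmFit and eBayes, two-sided, with Benjamini-Hochberg adjustment and a threshold of 0.05. The fit was tested on simulated data. The exact permutation test of 3 arrays against 3 cannot go below p = 0.1.

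Symbols came from the platform annotation (34885 probes with 1 symbol, 18 with several, 10378 with none) and were updated through RefSeq gene identifiers (GRCm38.p6) for 34807 probes. The annotation names no build for the probes. The text names Chd8, all 10 members with every tested probe, and in other lists the genes that passed or else the 3 with the lowest p. Nupr1, Cdkn1a, Vegfa, Sqstm1, Gpt2 and Aldh18a1 were added after their values were seen. In the stem cell list, where none passed, Pou5f1, Nanog and Sox2 were named whatever their p. The members, lists and tests were chosen with earlier results of these data known. The promoter motifs were chosen from textbook knowledge. The number of arrays limits precision. The alternatives covered background correction, scaling, detection filter, variance model, probe choice, the feeder covariate and leaving out each array.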

Additional observations from a re-analysis of the deposited data

How the results depend on the processing

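No paired analysis was possible because the labels give the groups no shared replicate numbers. Under 17 alternatives, the number of the 10 integrated stress response genes called was 1 with normexp without controls and with a looser filter (Slc7a11), 3 with median scaling (Atf5, Cebpb, Slc7a11) and with an intensity trend (Ddit3, Cebpb, Slc7a11), 4 with the deposited normalized values and when background correction was left out (Atf5, Ddit3, Cebpb, Slc7a11), and 0 to 2 when 1 array was left out, with 2 without shChd8 replicate 3 and 1 without control replicate 2. The 62 wider pathway genes had 9 calls without background correction, with the deposited values and with the trend, 4 with median scaling, 0 unmoderated and with the feeder covariate, and 0 to 3 with 1 array left out. Over all genes, 418 calls became 692 with normexp, 1176 without background correction, 1179 with the deposited values, 914 with median scaling, 1164 with the trend, 690 with the stricter and 216 without a filter, 13 unmoderated, 0 with the feeder covariate, and 14 to 564 with 1 array left out. Median scaling moved the median of all genes to 0.14 and the split from 165 higher and 253 lower to 748 and 166. The cause of these changes was not tested. The deposited values match quantile normalization without background correction, so those 2 alternatives are nearly the same setting. Chd8 was lower in every alternative, and its call was lost unmoderated (-1.39, adjusted p = 0.061) and with the covariate (-1.56, adjusted p = 0.374).

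Of 254 fits of single member probes, 210 kept sign and side of the threshold, 29 passed where the main setting had not, and 15 turned sign, all at Atf4, Chac1 or Trib3 and none with a call. With the covariate the Atf4 probes had -0.63 and -0.04. With median scaling the Trib3 probes had 0.16, 0.14 and 0.07. With 1 array left out, Atf4 ranged from -0.18 to 0.16 at its brightest probe, Chac1 from -0.52 to 0.03, and Trib3 from -0.17 to 0.13 at its brightest probe, from -0.15 to 0.04 at ILMN_1252762 and from -0.19 to 0.20 at ILMN_1244279. The stricter filter left out Atf3 and Slc7a11, which were dim on control arrays.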
